A study of Papio anubis with 25 samples.

Results

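The genes described here are coagulation factors, their inhibitors and the components of the complement system, followed through 5 tissues of the olive baboon (Papio anubis). A list of 50 gene symbols defined the set, and the 46 of them found in the deposited expression table, out of 21287 genes in all, were analysed. PLG, C2, CFB and CFD, the other 4, were not analysed here. The list holds clotting factors, the fibrinogen chains, the contact system, anticoagulants, the fibrinolytic enzymes and the classical, lectin, alternative and terminal arms of complement. It was drawn up to separate genes expressed in liver alone from those also expressed in glandular or stromal cells.

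The study sequenced messenger RNA from liver, pancreas and the left parotid, submandibular and sublingual salivary glands of 5 baboons, each tissue of an animal giving 1 library, 25 in all. It was built to find where amylase genes are expressed, and it names the contrasts of pancreas with salivary gland and with liver as its main ones. The animals were 4 females (baboons 1 to 4) and 1 male (baboon 5), all tissues were flash frozen, no treatment or genotype is given in the labels, and RNA came from thin sections, so a library holds whatever cell types those sections held. With 1 male animal, sex cannot be told apart from the animal itself.

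Blood coagulation is a cascade of zymogens, most of them made by hepatocytes and secreted into plasma, which ends when thrombin cuts fibrinogen into fibrin. Complement is a second plasma cascade, started by antibody-bound C1, by mannose-binding lectin or by spontaneous turnover of C3, and it ends in a membrane pore built from C5b to C9. Liver supplies most plasma proteins of both systems, whereas vascular endothelium, macrophages and fibroblasts make several of the receptors, cofactors and activators that act at the vessel wall or within tissue.

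Values are TPM, in which the reads of a gene are divided by transcript length and scaled to the same total in every library, so levels of different genes can be set side by side. TPM keeps no record of read depth, so the number of reads behind a value is unknown and its precision rests on the spread over 5 animals. Means are given with the standard deviation (SD, n = 5 animals). Differences between tissues are log2 fold changes of TPM + 1 with their standard error (SE) after the ± sign, from 1 limma model of tissue and animal fitted to the 25 libraries together. A gene was called different at a Benjamini-Hochberg adjusted p under 0.05 over all 14991 genes tested, if its log2 fold change was also at least 1 in size. Of the 46 members, 45 passed the filter of a mean of at least 1 TPM in some tissue. F8 did not.

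The libraries were checked against markers of the cell types they could hold. The summed TPM of 5 hepatocyte markers (ALB, APOA1, TTR, TF and AHSG) was 38891 to 67564 in liver and 123.3 to 1009 in the other 20 libraries. Among the glands, the summed levels of 8 endothelial markers spanned 3.524 to 488.7 TPM in parotid libraries and 6.97 to 396.3 in submandibular ones, and those of 6 fibroblast markers 28.96 to 6128 and 55.34 to 5485. Parotid of baboons 2 and 5 and submandibular gland of baboon 2 stood highest for both lists in their tissues. Parotid of baboon 2 was also highest for adipocyte markers (5549 TPM) and parotid of baboon 5 for lymphocyte markers (911.6 TPM), while squamous epithelial markers reached 107137 and 47055 TPM in sublingual gland of baboons 1 and 4. Skeletal muscle actin, ACTA1, reached 33485 TPM in sublingual gland of baboon 2. The 5 salivary secretory markers (AQP5, ZG16B, PIP, OPRPN and BPIFA2) summed to 851.6 to 3948 TPM in liver. They were at 1842 and 4259 TPM in parotid of baboons 2 and 5, 1912 in submandibular gland of baboon 2 and 1313 in sublingual gland of baboon 2, within or just above the range of liver. The other parotid libraries had 6344 to 20447 TPM, the other submandibular ones 41236 to 61136 and the other sublingual ones 4896 to 280260. AQP5, the water channel of secretory acini, was at 2.25, 3.64, 5.397 and 2.61 TPM in those 4 low libraries and 1.98 to 3.904 in liver, so that the secretory markers stood at or near the level of liver there. Sublingual gland of baboon 4, with a sum of 4896 TPM, also had AQP5 within the range of liver, at 3.784 TPM.

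Most of the set was a liver set. Of 45 members tested, 34 (75.6%) were called higher in liver than in parotid, where 10.9% of all genes tested were. The count was 35 (77.8%) against submandibular gland, 34 against sublingual gland and 34 against pancreas, where the shares of all genes called higher in liver were 13.9%, 9.52% and 14.6%. The median log2 fold change of the members was 5.03, 5.23, 4.88 and 4.96 in that order, against -0.01, 0.27, -0.17 and 0.44 over all genes tested. TMM scaling of the TPM values brought the 4 all-gene medians to between -0.08 and 0.03, and the members' medians to 4.85, 4.93, 4.82 and 4.36. Those 4 comparisons share the same 5 liver libraries and are not independent of each other.

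In the reverse direction, PLAT was called lower in liver than in submandibular gland, and no other member was called lower in liver in any of the 4. Among all genes, 2.84% were called lower in liver than in parotid, 2.61% lower than in submandibular gland, 5.93% lower than in sublingual gland and 2.86% lower than in pancreas. Limma's unadjusted p was under 0.05 for 38 members against parotid, 37 against submandibular gland, 39 against sublingual gland and 38 against pancreas, and for 3843, 4223, 4166 and 4337 of the 14991 genes in the same order.

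**Figure D1:**
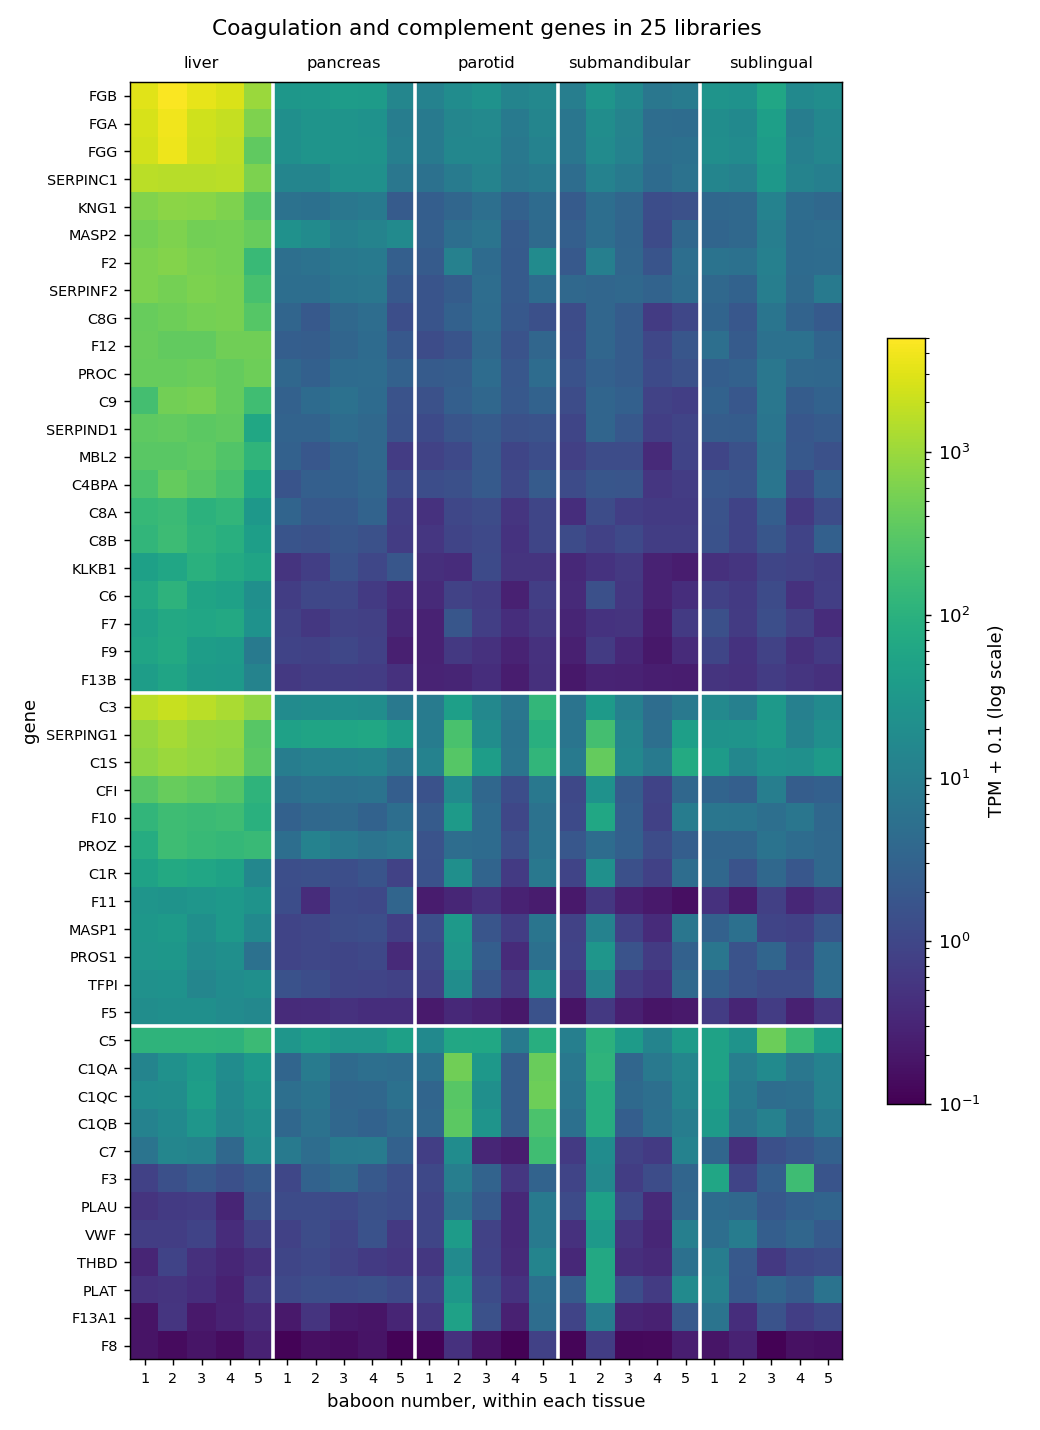
TPM + 0.1 on a log colour scale for the 46 members (one per line, ordered by class and then by liver mean) in the 25 libraries, grouped by tissue with the baboon number below. Colours show absolute levels, so abundant genes are visible outside liver too. In the upper block of 22 genes each gene is brightest in its 5 liver libraries, the middle block of 12 is brightest in liver with brighter single gland libraries, and the lower block of 12 has its highest tissue mean outside liver.

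The members fell into 3 classes by their levels, and the classes are a description of those levels. In the first, called liver-restricted here, a gene was called higher in liver in all 4 comparisons, and each library outside liver was under 5% of the liver mean. This class held 22 members (48.9% of those tested), and the same rule took in 1.61% of all genes tested. In each of these 22 the 5 liver libraries also lay above the other 20, which nearly follows from the 5% limit and adds little to it. In the second, 12 members were called higher in liver in all 4 comparisons (34 members with the first class, against 7.62% of all genes) but exceeded 5% in some other library. The last 12 members had their highest tissue mean outside liver. All 5 liver libraries lay above the other 20 for 29 of the 45 members tested (64.4%), and for 5.08% of all genes tested. At the 5% limit, MASP2 was just inside with a highest outside value of 4.568% of its liver mean, and F5 (7.275%) and CFI (8.42%) were just outside.

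Summed over members, liver held 17836 ± 6491 TPM (range 7678 to 25614), between 0.7678% and 2.561% of all transcripts in a library. The sums were 318.6 ± 55.63 in pancreas, 936.5 ± 1019 in parotid, 491 ± 249.1 in sublingual gland and 461.6 ± 632.4 in submandibular gland. Fibrinogen alone made up 25.55% to 49.09% of the sum in liver.

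The fibrinogen chains stood highest. FGA, FGB and FGG encode the Aα, Bβ and γ chains, which are secreted together as one hexamer, and all 3 were liver-restricted. FGB was at 3133, 4713, 3349, 2686 and 988 TPM in the livers of baboons 1 to 5, a mean of 2974 ± 1343. Outside liver it was at 30.9, 31.5, 39.8, 38.5 and 14.2 TPM in pancreas, 12.1, 19.3, 24.6, 13.1 and 15.2 in parotid, 10.1, 27.96, 17.2, 7.33 and 8.88 in submandibular gland and 27.3, 24.4, 60.97, 17.1 and 20.4 in sublingual gland. No library outside liver came near the lowest liver value, that of baboon 5. The log2 fold change of FGB was 6.45 ± 0.39 against pancreas (adjusted p = 5.65e-12, limma) and 7.60 ± 0.39 against submandibular gland (adjusted p = 2.6e-13).

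FGA was at 2559, 4019, 2328, 1961 and 616 TPM in liver and FGG at 2389, 3843, 2163, 1798 and 357 TPM. All 3 chains were highest in the liver of baboon 2 and lowest in that of baboon 5. Outside liver the mean of FGA was between 9.66 TPM in submandibular gland and 22.1 TPM in pancreas, and that of FGG between 9.56 and 22.4 TPM in the same tissues.

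Among prothrombin, the vitamin K dependent enzymes and their cofactors, 8 members were present, 7 were tested and 5 (F2, F5, F7, F9 and F10) were called higher in liver in every comparison. F2, prothrombin, was the highest of them in liver at 579.8, 669.5, 558, 524 and 151 TPM, a mean of 496 ± 200.4. Elsewhere, pancreas had 5.17, 5.88, 7.37, 8.11 and 2.57 TPM, parotid 2.13, 11.4, 4.37, 2.07 and 18.3, submandibular gland 1.93, 10.7, 3.404, 1.597 and 4.98 and sublingual gland 6.12, 5.58, 11.02, 4.26 and 4.56. Parotid of baboons 2 and 5, submandibular gland of baboon 2 and sublingual gland of baboon 3 were the 4 libraries above 10. Its log2 fold change against parotid was 6.08 ± 0.52 (adjusted p = 2.02e-09, limma).

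F10, whose active form converts prothrombin to thrombin, averaged 146 ± 35.7 TPM in liver. It was at 2.13, 37, 4.33, 0.908 and 5.88 TPM in parotid and 1.03, 63.2, 2.49, 0.72 and 9.46 in submandibular gland, so baboon 2 stood far above the other 4 animals in both glands without reaching the lowest liver (95.01 TPM). F7, which starts coagulation when bound to tissue factor, averaged 54.3 ± 18.5 TPM in liver, and F9, the factor lacking in haemophilia B, 42.7 ± 23.7. The largest values outside liver were 1.68 TPM for F7 and 0.912 for F9. F5, the cofactor of activated factor X, averaged 19.6 ± 2.78 TPM in liver, and its highest value elsewhere, 1.43 TPM in parotid of baboon 5, put it outside the restricted class.

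F3, VWF and F8, the remaining members of this group, had their highest tissue mean outside liver. F3, tissue factor, the membrane receptor that triggers coagulation, was at 0.695, 1.33, 1.98, 1.31 and 2.01 TPM in liver and 0.885, 2.93, 4.03, 1.93 and 1.25 in pancreas. It was at 0.935, 10.01, 2.98, 0.453 and 2.98 TPM in parotid, 0.836, 16.2, 0.622, 1.13 and 3.26 in submandibular gland and 61.3, 0.835, 2.401, 175 and 1.58 in sublingual gland. Sublingual gland of baboons 1 and 4 stood above every other library, and those 2 libraries also held 50365 and 12518 TPM of KRT13, a keratin of squamous epithelium. In the other 3 sublingual libraries KRT13 was at 228, 72.4 and 36.4 TPM. The part of squamous epithelium in the F3 level was not tested, and in bulk tissue more cells of a type and more RNA per cell cannot be told apart, nor fewer and less. The liver to sublingual difference of F3 was -2.22 ± 0.96 with an adjusted p of 0.128, so it was not called.

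VWF, which tethers platelets and carries factor VIII, was at 0.602, 0.625, 0.77, 0.303 and 0.731 TPM in liver. The values were 0.853, 37.2, 0.738, 0.254 and 8.06 in parotid, 0.377, 32.7, 0.441, 0.226 and 10.7 in submandibular gland and 4.79, 9.44, 2.44, 3.46 and 2.01 in sublingual gland, with pancreas at 0.506 to 1.41. Baboon 2 led in all 3 glands, and every sublingual library lay above every liver library. With this spread none of its 4 liver differences was called, the lowest adjusted p being 0.103 against sublingual gland. The 8 endothelial markers summed to 9.16 to 17.19 TPM in liver and 21.13 to 74.86 in sublingual gland, and their part in the VWF level was not tested. F8, the cofactor lacking in haemophilia A, was at or under 0.695 TPM in every library and was not tested. Its highest values, 0.695, 0.618 and 0.364 TPM, were in parotid of baboon 5, submandibular gland of baboon 2 and parotid of baboon 2.

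All 4 members of the contact system, which starts clotting on negatively charged surfaces and releases bradykinin, were called higher in liver in every comparison, and 3 were restricted. KNG1, kininogen, the precursor of bradykinin, was highest at 651, 778, 722, 618 and 299 TPM in liver (mean 614 ± 187). For KNG1, pancreas had 5.69, 5.39, 7.18, 8.12 and 2.09 TPM, parotid 2.42, 3.46, 5.02, 2.77 and 4.33, submandibular gland 2.12, 4.85, 3.52, 1.17 and 1.395 and sublingual gland 3.66, 3.83, 11.8, 4.42 and 3.85, all far below the lowest liver. F12, the surface-activated protease, was at 421, 376, 372, 485 and 474 TPM in liver and showed the smallest outside value of any member relative to liver, at most 1.332% of its liver mean. KLKB1, plasma prekallikrein, averaged 66.5 ± 19.7 TPM in liver.

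F11, the substrate of activated factor XII, was at 28.7, 25.9, 29.9, 33.4 and 25.5 TPM in liver, a narrow range that included baboon 5. It was at 1.18, 0.294, 1.03, 0.923 and 3.26 TPM in pancreas, and at most 0.683 TPM in any gland library, so only the pancreas of baboon 5 put it outside the restricted class. The difference between the mean of the 3 glands and pancreas was -0.80 ± 0.23 (adjusted p = 0.0383, limma), past the p threshold and short of the fold threshold.

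Factor XIII, the transglutaminase that crosslinks fibrin, has its carrier and its catalytic subunit made from separate genes, and they had opposite patterns. F13B, the carrier subunit, was at 40.96, 54.4, 35.8, 32.7 and 12.3 TPM in liver and at most 0.609 TPM outside it. For F13B, pancreas had 0.492, 0.606, 0.609, 0.579 and 0.366 TPM, parotid 0.198, 0.201, 0.307, 0.138 and 0.35, submandibular gland 0.0993, 0.199, 0.179, 0.145 and 0.138 and sublingual gland 0.403, 0.376, 0.597, 0.42 and 0.346. F13A1, the catalytic subunit, known from macrophages and platelets, was at 0.077, 0.437, 0.113, 0.18 and 0.277 TPM in liver and 0.109, 0.401, 0.0991, 0.0829 and 0.209 in pancreas. It was at 0.486, 48.7, 1.34, 0.166 and 4.73 TPM in parotid, 0.809, 9.52, 0.201, 0.169 and 1.92 in submandibular gland and 6.35, 0.313, 1.5, 0.647 and 0.955 in sublingual gland. Parotid of baboon 2 alone carried most of the parotid mean, and baboon 4 in parotid, baboons 3 and 4 in submandibular gland and baboon 2 in sublingual gland overlapped with liver.

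The log2 fold change of F13A1 in liver against parotid was -1.76 ± 0.64 (adjusted p = 0.0715), which was not called, whereas that of F13B was 4.73 ± 0.29 (adjusted p = 4.25e-12). The 4 platelet markers examined (PPBP, ITGA2B, GP9 and GP1BA) summed to at most 8.79 TPM in any library, and to 0.7391 TPM in parotid of baboon 2. Macrophage markers summed to 210.9 TPM there, 475.1 in parotid of baboon 5 and 235.4 to 656.5 in liver. CD14 made up 224 to 646 TPM of the liver sum, and MARCO 350.4 TPM of that in parotid of baboon 5. F13A1 was at 48.7 TPM, 4.73 TPM and at most 0.437 TPM in the same order of libraries. CD163 fell in that order too, at 24.04, 6.39 and at most 1.271 TPM. So did CSF1R (36.88, 27.56 and at most 1.345 TPM) and CD68 (62.79, 49.57 and at most 4.948 TPM). CD14, MARCO, MS4A7 and VSIG4 did not. The part of either cell type in the F13A1 level was not tested.

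**Figure D2:**
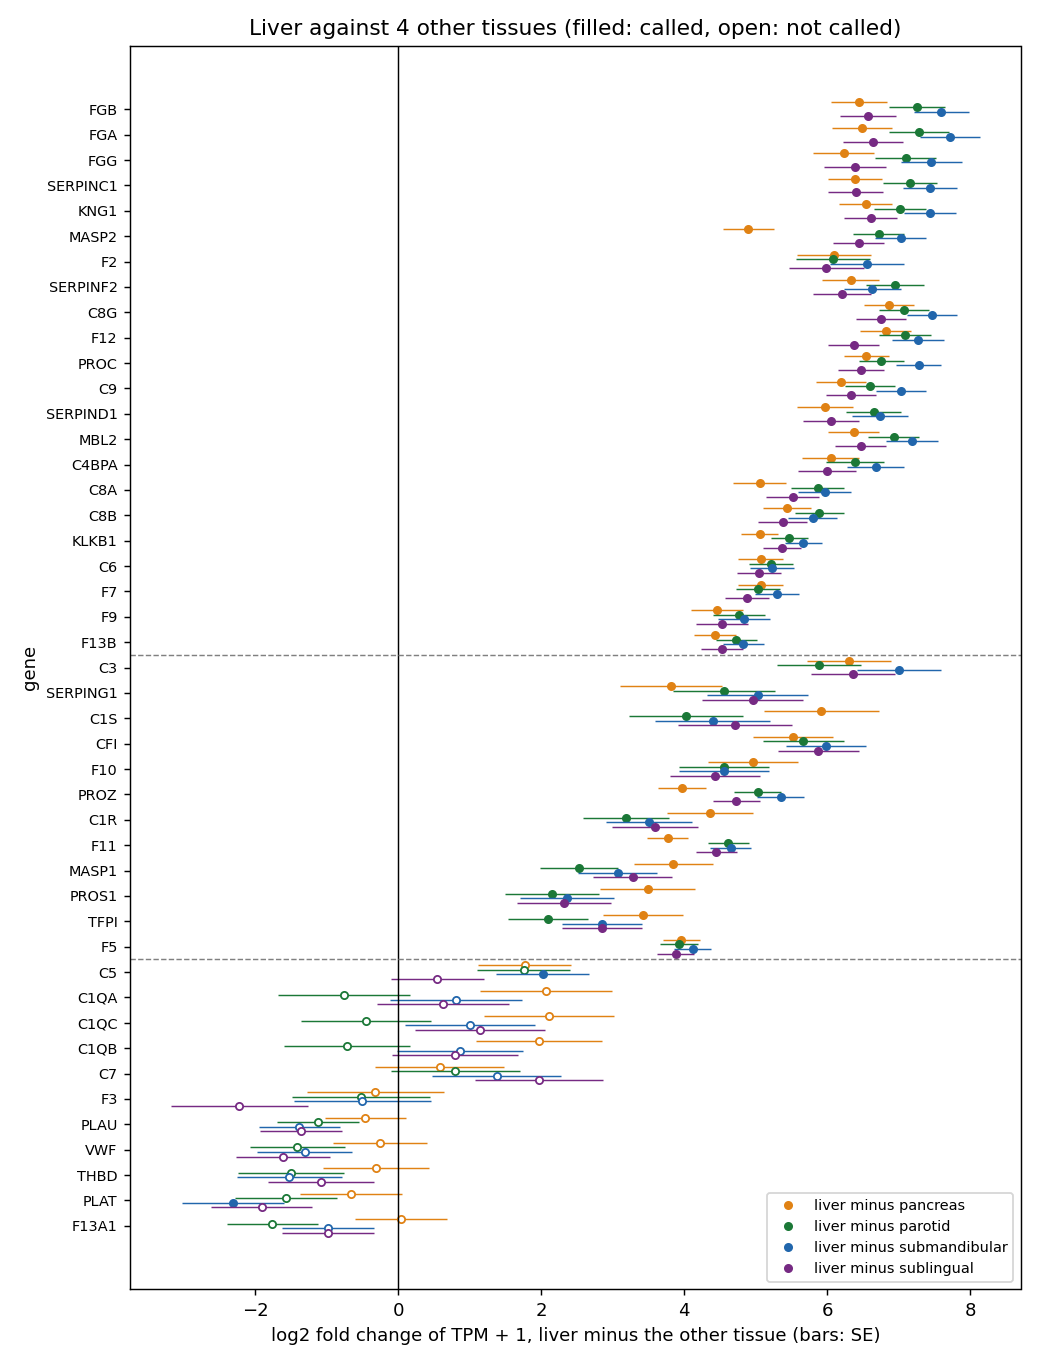
Log2 fold change of TPM + 1 in liver minus each of 4 other tissues, for the 45 members tested, ordered as in the colour map of all members. Points are limma estimates, bars are standard errors, and filled points were called. Estimates of the 34 genes above the lower dashed line lie between 2.09 and 7.72, and among the 11 below it C5 and PLAT, each against submandibular gland, are the filled points.

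Of 7 anticoagulants, 6 were called higher in liver in every comparison and 3 (SERPINC1, SERPIND1 and PROC) were restricted. SERPINC1, antithrombin, was the highest at 1631, 1587, 1580, 1653 and 593 TPM in liver. Baboons 1 to 4 lay within a narrow band and baboon 5 far below it. Outside liver, SERPINC1 was at 13.7, 13.8, 22.7, 22.5 and 7.05 TPM in pancreas, 5.65, 8.78, 12.8, 6.78 and 8.64 in parotid, 4.62, 11.9, 8.63, 4.33 and 5.92 in submandibular gland and 13.6, 11.5, 31.5, 12.7 and 10.4 in sublingual gland, the highest being sublingual gland of baboon 3. SERPIND1, heparin cofactor II, averaged 292 ± 129 TPM in liver, with 62.6 in baboon 5. PROC, the protease that inactivates factors V and VIII, was at 398, 405, 436, 389.7 and 468 TPM in liver, where baboon 5 was the highest of the 5 animals.

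PROS1, TFPI and PROZ were higher in liver but shared. PROS1, protein S, the cofactor of activated protein C, was at 28.97, 30.4, 18.2, 22.1 and 5.67 TPM in liver, 0.895, 29.04, 2.49, 0.283 and 5.31 in parotid and 0.775, 29.5, 1.48, 0.556 and 2.72 in submandibular gland. Both glands of baboon 2 reached the level of its liver and parotid of baboon 5 came close to that of its own, which was low, while the other 3 animals lay well under theirs. The liver to parotid difference was 2.15 ± 0.66 (adjusted p = 0.0286, limma). That call was lost without baboon 1, 3 or 4, where adjusted p was 0.168, 0.145 and 0.196.

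TFPI, the inhibitor of the tissue factor complex, was at 23.7, 25.03, 14.3, 19.1 and 21.8 TPM in liver. It was at 0.739, 19.8, 1.696, 0.494 and 20.9 TPM in parotid and 0.508, 13.8, 0.596, 0.39 and 3.696 in submandibular gland, so parotid of baboons 2 and 5 overlapped with liver. Its difference from parotid was 2.09 ± 0.56 (adjusted p = 0.0118, limma), and the call was lost without baboon 1, 3 or 4 (adjusted p = 0.11, 0.0924 and 0.121). PROZ, protein Z, which helps inhibit activated factor X, averaged 139 ± 34.7 TPM in liver and 7.95 ± 2.74 in pancreas.

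THBD, thrombomodulin, the endothelial receptor that turns thrombin into an activator of protein C, was the anticoagulant not called in liver. It was at 0.208, 0.78, 0.355, 0.217 and 0.355 TPM in liver, 0.875, 0.985, 0.73, 0.518 and 0.464 in pancreas and 0.479, 17.8, 0.766, 0.269 and 13.2 in parotid. Submandibular gland had 0.25, 68.3, 0.325, 0.264 and 5.39 TPM and sublingual gland 9.62, 1.98, 0.511, 0.949 and 1.16. The high values were those of baboons 2 and 5 in parotid and submandibular gland and of baboon 1 in sublingual gland. Sublingual gland of baboons 2, 4 and 5 lay just above liver, and the remaining gland libraries overlapped with it. Its 4 liver differences had adjusted p between 0.18 and 0.846.

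The fibrinolytic members divided between an inhibitor restricted to liver and activators outside it. SERPINF2, the plasmin inhibitor, was at 597, 524, 583, 538 and 218 TPM in liver, and its highest value elsewhere was 10.2 TPM in sublingual gland of baboon 3. For SERPINF2, pancreas had 4.98, 4.85, 6.71, 7.29 and 1.86 TPM, parotid 1.59, 2.24, 4.67, 1.997 and 4.25, submandibular gland 3.796, 3.52, 3.74, 2.99 and 4.53 and sublingual gland 3.801, 2.86, 10.2, 4.07 and 8.21. PLAT, tissue plasminogen activator, was at 0.37, 0.413, 0.308, 0.167 and 0.556 TPM in liver and 0.998, 1.24, 1.18, 1.29 and 1.01 in pancreas. The glands had 0.806, 30.7, 1.09, 0.385 and 5.35 TPM (parotid), 2.13, 68.98, 1.19, 0.56 and 17.4 (submandibular) and 11.3, 1.91, 3.31, 2.16 and 6.18 (sublingual). Every submandibular, sublingual and pancreatic library lay above every liver library for PLAT, and parotid of baboon 4 overlapped with liver.

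PLAT was called lower in liver than in submandibular gland, with a log2 fold change of -2.31 ± 0.71 (adjusted p = 0.0249, limma). Without an animal term the adjusted p was 0.0525, and leaving out baboon 5 gave -2.0 with an adjusted p of 0.126. Leaving out only the liver library of baboon 5 gave 0.0576. Without 5 gland libraries (parotid and submandibular gland of baboons 2 and 5 and sublingual gland of baboon 2) the difference was -0.76, short of the fold threshold. PLAU, urokinase, the second activator, was at 0.407, 0.522, 0.572, 0.21 and 1.34 TPM in liver and 1.06, 46.2, 0.973, 0.265 and 3.68 in submandibular gland. Baboon 2 again stood apart there. In parotid PLAU was at 0.833, 6.26, 2.04, 0.243 and 8.07 TPM, in sublingual gland 4.202, 3.74, 1.84, 2.65 and 3.11 and in pancreas 1.11, 1.102, 0.992, 1.39 and 1.19, and none of its 4 liver differences was called.

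The start of the classical complement pathway was split between tissues. C1q, which binds antibody on a target, has 3 chains encoded by C1QA, C1QB and C1QC, and all 3 had their highest tissue mean in parotid. C1QA was at 13.2, 24.2, 38.1, 18.97 and 34.2 TPM in liver and 3.29, 8.74, 4.14, 5.13 and 4.74 in pancreas. It was at 5.29, 469.6, 31.9, 2.31 and 430.2 TPM in parotid, 7.43, 113, 3.53, 7.82 and 14.5 in submandibular gland and 50.5, 10.2, 17.4, 7.31 and 11.8 in sublingual gland. Baboons 2 and 5 in parotid, baboon 2 in submandibular gland and baboon 1 in sublingual gland lay above every liver, and the other gland libraries did not.

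C1QB had 3.59, 323, 26.5, 2.31 and 232 TPM in parotid, 5.33, 84.4, 2.45, 5.34 and 9.77 in submandibular gland and 36.6, 6.47, 11.7, 3.92 and 8.43 in sublingual gland. For C1QC, parotid held 3.26, 300.3, 21.97, 2.301 and 451 TPM, submandibular gland 6.64, 85.2, 3.94, 5.12 and 13.4, and sublingual gland 42.6, 8.49, 4.67, 5.11 and 11.4. In liver C1QB was at 11.8, 17.2, 29.8, 14.8 and 21.9 TPM and C1QC at 19.3, 19.9, 43.01, 17.1 and 26.4. In pancreas C1QB was at 3.58, 5.72, 3.67, 2.85 and 4.06 TPM and C1QC at 5.09, 6.59, 3.49, 3.62 and 5.47. The 3 chains stood high in the same libraries. None was called between liver and any other tissue, and the lowest adjusted p was 0.122, for C1QC against pancreas with a log2 fold change of 2.11 ± 0.91.

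Macrophages are a known source of C1q. The summed TPM of 7 macrophage markers (CD68, CD163, CSF1R, MARCO, CD14, MS4A7 and VSIG4) was 210.9 and 475.1 in parotid of baboons 2 and 5, and 4.192 to 29.88 in the other 3 parotid libraries. It was 56.88 in submandibular gland of baboon 2 and 5.005 to 10.93 in the other 4, and 43.17 in sublingual gland of baboon 1, where the others had 9.963 to 27.43. MARCO made up 350.4 TPM of the sum in parotid of baboon 5. Liver held 235.4 to 656.5 TPM, of which CD14 made up 224 to 646 TPM. The part of macrophage number in the C1q level was not tested.

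C1R and C1S, the proteases of C1, were higher in liver in every comparison. C1S was at 805, 999.6, 854, 759 and 328 TPM in liver and 9.77, 11.5, 12.3, 13.3 and 7.21 in pancreas. In the glands it was at 12.2, 289.9, 40.6, 6.299 and 125.2 TPM (parotid), 8.26, 396, 15.3, 8.201 and 74.7 (submandibular) and 37.5, 14.7, 24.98, 23.1 and 36.7 (sublingual). Submandibular gland of baboon 2 was above the liver of baboon 5 and below the other 4 livers, the one overlap in the gene. The log2 fold change of C1S was 4.03 ± 0.80 against parotid (adjusted p = 0.0007, limma) and 5.92 ± 0.80 against pancreas (adjusted p = 3.93e-06). C1R was at 51.3, 70.7, 60.2, 49.95 and 14.8 TPM in liver, 21.6 in parotid of baboon 2 and 22.4 in submandibular gland of baboon 2, and at most 7.55 TPM in the other 18 libraries outside liver, so that baboon 2 overlapped with the liver of baboon 5.

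The lectin pathway starts when mannose-binding lectin meets sugars on a microbe and its associated proteases cut C4. MBL2, the lectin, was at 314, 316, 336, 270.5 and 121 TPM in liver and 0.263 to 5.79 TPM elsewhere. MASP2, the protease that cuts C4 and C2, was the highest lectin-pathway member in liver at 522, 611, 495, 514 and 405 TPM. Pancreas came second with 23.3, 18.7, 10.6, 12.4 and 17.9 TPM (mean 16.6 ± 5.12). The glands had 2.17 to 6.28 TPM in parotid, 1.097 to 4.89 in submandibular gland and 3.33 to 10.02 in sublingual gland, so that every pancreas library lay above every gland library. MASP1, which activates MASP2, was at 30.4, 36.3, 22.2, 33.4 and 17.1 TPM in liver and 1.25, 34.9, 1.65, 0.599 and 6.66 in parotid, where baboon 2 lay within the range of liver.

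C3, the protein on which all complement pathways meet, was at 1619, 2051, 1618, 1278 and 829 TPM in liver, a mean of 1479 ± 455. It was at 8.94, 44.9, 15.6, 6.91 and 129.7 TPM in parotid, 6.23, 35.99, 10.98, 4.74 and 7.83 in submandibular gland, 15.9, 11.1, 32.7, 10.9 and 17.6 in sublingual gland and 18.6, 20.2, 21.9, 20.2 and 7.87 in pancreas. Parotid of baboon 5 had the highest value outside liver, and no library outside liver approached the lowest liver. The log2 fold change of C3 was 5.89 ± 0.59 against parotid (adjusted p = 3.98e-08, limma).

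Of 7 terminal pathway members, 5 (C6, C8A, C8B, C8G and C9) were restricted to liver and 2, C5 and C7, were not. C8G, the small subunit of C8, was the highest of them at 408, 466, 530.4, 534 and 293 TPM in liver. For C8G, pancreas had 3.27, 1.94, 3.83, 4.599 and 1.23 TPM, parotid 1.56, 2.78, 4.45, 1.87 and 1.29, submandibular gland 1.11, 3.495, 2.23, 0.564 and 0.902 and sublingual gland 3.22, 1.805, 6.54, 3.002 and 2.06. C9, which polymerises into the pore, was at 196, 492, 542, 387 and 184 TPM, with the livers of baboons 1 and 5 below the other 3. C8A and C8B, the chains that insert into the membrane, averaged 113 ± 49.6 and 108 ± 44.9 TPM in liver, and C6 60.8 ± 32.1.

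C5, whose cleavage releases an inflammatory peptide and starts the pore, was spread over all tissues. It was at 116, 114, 114, 108 and 162 TPM in liver and 29.7, 43.8, 29.7, 28.8 and 46.9 in pancreas. The glands had 16.8, 64.7, 62.9, 8.37 and 87.7 TPM (parotid), 10.6, 106, 37.8, 12.9 and 36.3 (submandibular) and 50.04, 26.2, 435, 152 and 43.1 (sublingual). Sublingual gland of baboon 3 had the highest C5 of all 25 libraries, and that of baboon 4 lay within the range of liver. Every pancreas library was below every liver library, yet the difference, 1.77 ± 0.65 (adjusted p = 0.0639, limma), was not called.

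C5 was called against submandibular gland, at 2.02 ± 0.65 (adjusted p = 0.0343). The call was lost without baboon 1, 3, 4 or 5, with adjusted p between 0.071 and 0.22, and at 0.0633 without the liver library of baboon 5. C7, which anchors the growing complex to a membrane, was at 6.31, 14.2, 12.6, 3.71 and 18.2 TPM in liver and 8.06, 4.66, 8.56, 8.82 and 2.78 in pancreas. It was at 0.65, 18.8, 0.224, 0.142 and 185 TPM in parotid, 0.54, 19.4, 0.749, 0.539 and 12.3 in submandibular gland and 3.42, 0.331, 1.304, 1.82 and 2.84 in sublingual gland. Parotid of baboon 5 lay far above every other library, and liver and pancreas overlapped. None of its liver differences was called, with adjusted p from 0.153 to 0.738.

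The 3 complement regulators present were called higher in liver throughout. SERPING1, the inhibitor of C1 and of the contact proteases, was at 886, 1142, 899, 877 and 301 TPM in liver. Pancreas had 49.5, 54.5, 56.6, 62.04 and 41.7 TPM, parotid 9.14, 223, 20.4, 6.097 and 93.5, submandibular gland 6.61, 200.2, 14.4, 5.09 and 44.2 and sublingual gland 25.5, 26.7, 35.6, 12.4 and 21.96. Baboon 2 stood highest in parotid and submandibular gland, below the lowest liver. CFI, the protease that inactivates C3b and C4b, was at 303, 411, 346, 281 and 112 TPM in liver, with 24.5 TPM in submandibular gland of baboon 2 as its highest value elsewhere. C4BPA, a cofactor of CFI, averaged 240.4 ± 121 TPM in liver and was restricted.

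**Figure D3:**
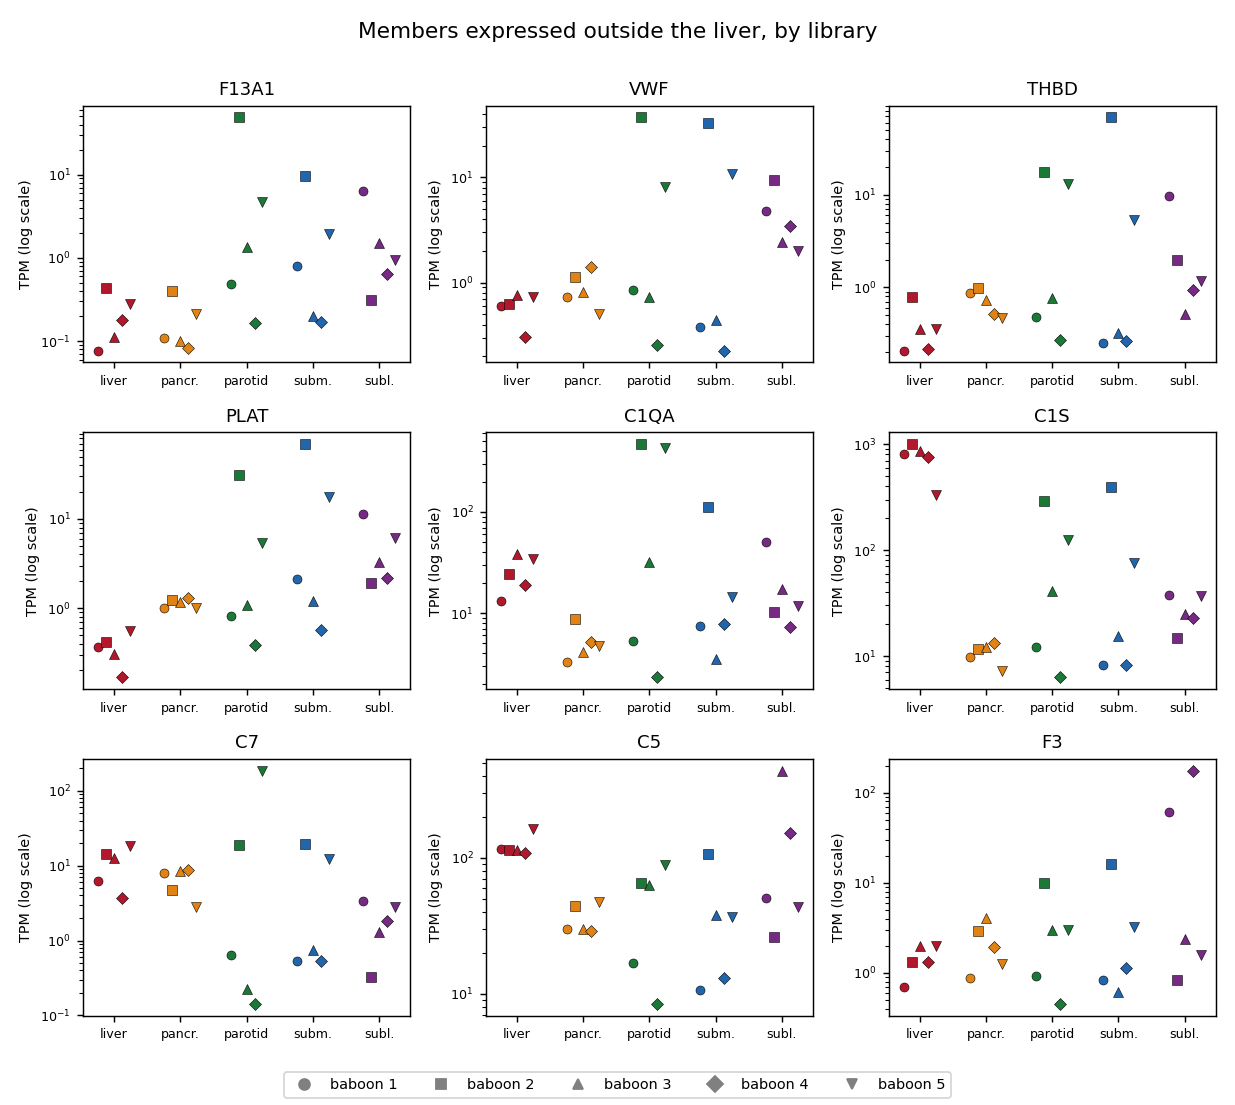
TPM on a log scale by library for 9 members with appreciable levels outside liver, in liver, pancreas (pancr.), parotid, submandibular (subm.) and sublingual (subl.) gland, with a symbol for each baboon. Squares (baboon 2) and downward triangles (baboon 5) lead parotid and submandibular gland in F13A1, VWF, THBD, PLAT, C1QA, C1S and C7, whereas C5 and F3 are highest in single sublingual libraries.

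The gland libraries that stood high were few and largely the same. Among the 24 members that were not restricted, the highest library outside liver was submandibular gland of baboon 2 for 8, parotid of baboon 2 for 6 and parotid of baboon 5 for 6. Over all genes tested these libraries were the highest outside liver for 18.8%, 19.3% and 23.9% of genes, so they led in general. The other 4 members were led by sublingual gland of baboon 4 (F3), sublingual gland of baboon 3 (C5), pancreas of baboon 2 (PROZ) and pancreas of baboon 5 (F11). Submandibular gland of baboon 2 held 3658 TPM of the fibroblast gene DCN and 146 of the endothelial gene PECAM1, against 41.4 to 575 and 1.76 to 30.9 in the other 4 submandibular libraries. These 3 leading libraries were also the lowest of their tissues for the sum of the salivary secretory markers. The sums were 1842 TPM (parotid of baboon 2), 4259 (parotid of baboon 5) and 1912 (submandibular gland of baboon 2), against at least 6344 and 41236 in the other parotid and submandibular libraries. In parotid AQP5, OPRPN and BPIFA2 were lowest in baboons 2 and 5, and other markers were not. ZG16B was highest there, at 933.1 and 2047 TPM against 356.9 to 583.3 in the other parotid libraries. PIP was highest in parotid of baboon 5, at 1098 TPM, and at 396.6 in that of baboon 2. The part of tissue make-up in the members' levels in these 3 libraries was not tested.

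Leaving out the 5 gland libraries named above, a choice made after the values were seen, 6 of 45 members were called lower in liver than in sublingual gland: F3, F13A1, PLAT, PLAU, VWF and THBD. In that fit 17.2% of all genes were called so, a larger share than among the members. The log2 fold change was -2.13 (SE 0.28, adjusted p = 1.89e-05, limma) for PLAT and -1.36 (SE 0.22, adjusted p = 0.000164) for VWF. The sublingual libraries of baboons 1 and 4, rich in squamous markers, remained in the fit. No member was called lower in liver than in parotid or submandibular gland there. With 3 parotid and 3 submandibular libraries left, those tissues are assumed to vary as the others do.

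Liver-restricted members were not at 0 outside liver. As a percentage of the liver mean, the median of the 22 tissue means was 1.053% in pancreas, 0.6396% in parotid, 1.03% in sublingual gland and 0.4769% in submandibular gland. ALB, serum albumin, the most abundant hepatocyte transcript examined, stood at 0.9546%, 0.528%, 0.8805% and 0.3783% of its liver mean in the same order. APOA1 was at 0.6784%, 0.4277%, 0.6285% and 0.3473%, and AHSG at 1.05%, 0.5606%, 0.8785% and 0.3873%. The other hepatocyte markers differed, with TTR at 3.238%, 0.6056%, 0.9665% and 0.5329%. TF was at 1.216%, 1.446%, 4.227% and 1.719%. The ALB percentage and the median member were both highest in sublingual gland of baboon 3, at 1.908% and 1.967%. That library was the highest outside liver for 13 of the 22 members. In submandibular gland of baboon 4, the lowest library for both, ALB was at 0.1863% and the median member at 0.2356%. The part of hepatocyte RNA in these levels was not tested.

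A few members exceeded 2 times the ALB percentage in 3 animals of a tissue. MASP2 was over 2 times the ALB percentage in pancreas of baboons 1, 2 and 5, reaching 4.568% of its liver mean in baboon 1, and C8A was so in pancreas of baboons 1, 2 and 4. SERPINF2 and C8B were so in submandibular gland of baboons 1, 4 and 5. The median ratio to ALB over the 5 animals was 4.524 for MASP2 and 2.087 for C8A in pancreas, and 3.033 for SERPINF2 and 2.41 for C8B in submandibular gland, where C8B was at 0.6 to 1.09 TPM. In submandibular gland of baboon 5, 8 of the 22 members (F2, F7, F9, SERPINF2, C6, C8A, C8B and MASP2) were over 2 times the ALB percentage, at levels of 0.273 to 4.98 TPM. No restricted member was over 2 times the ALB percentage in all 5 libraries of any tissue.

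**Figure D4:**
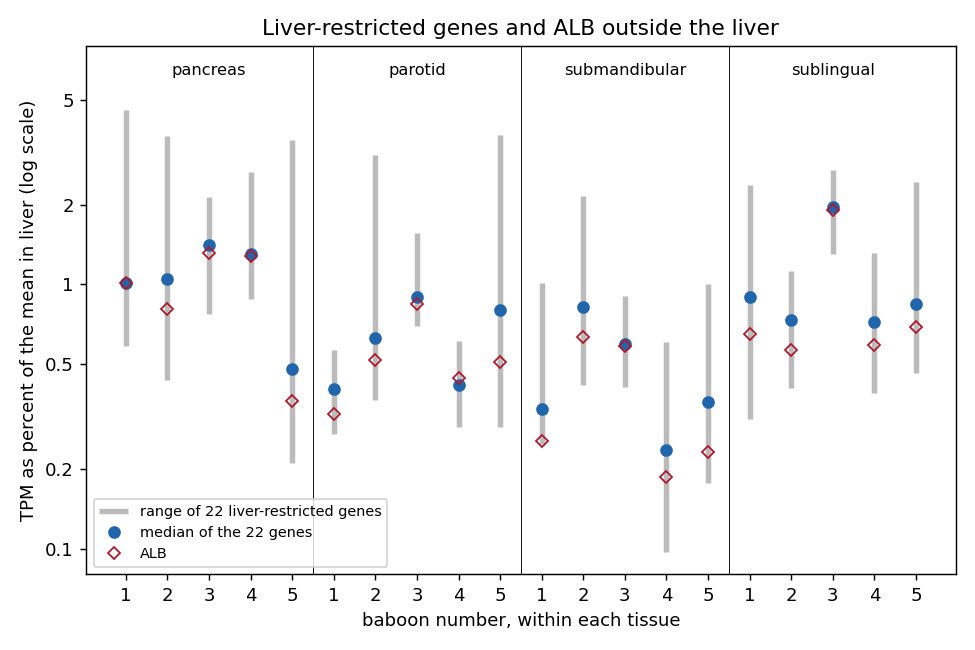
Level outside liver as a percentage of the mean in liver, on a log scale, for the 22 liver-restricted members (grey bar, range; blue point, median) and ALB (red diamond) in each of 20 libraries. The median and ALB move together between libraries, both highest in sublingual gland of baboon 3 (1.967% and 1.908%), and the pancreas bars of baboons 1, 2 and 5 reach up to MASP2.

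Salivary gland against pancreas is one of the study's own contrasts. With the 3 glands averaged at equal weight and set against pancreas, there were 0 of 45 members called higher and 2 called lower, MASP2 and PROZ. Over all genes tested 3.28% were called higher and 3.16% lower in the glands. Limma's unadjusted p was under 0.05 for 15 of the 45 members and 3711 of the 14991 genes. The log2 fold change of glands against pancreas was -1.83 for MASP2 (SE 0.30, adjusted p = 0.000192), and -1.06 for PROZ (SE 0.27, adjusted p = 0.0165).

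PROZ was at 4.82, 12.1, 8.49, 6.41 and 7.91 TPM in pancreas and 82.7, 176, 147, 134 and 153 in liver. The glands had 1.49, 4.66, 4.27, 1.27 and 6.17 TPM (parotid), 1.77, 4.47, 2.61, 1.15 and 2.48 (submandibular) and 3.34, 3.27, 6.16, 4.49 and 3.82 (sublingual), overlapping with the lower pancreas libraries. The call of PROZ was lost without baboon 1, 2, 3 or 4, while that of MASP2 was kept in every alternative run. The members' median difference was -0.24, and that of all genes 0.43. TMM scaling moved the latter to 0.09, and under it or median-of-ratios scaling 9 members were lower in the glands (C8A, F11, FGA, FGB, FGG, MASP2, PROZ, SERPINC1 and SERPING1) and 1, C1S, was higher. The share of all genes called lower also rose, to 6.26% with TMM and 6.38% with median-of-ratios scaling.

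Between glands no member was called. The shares of all genes called either way were 0% between parotid and submandibular gland, 0.113% between parotid and sublingual gland and 0.0667% between submandibular and sublingual gland. At an unadjusted limma p under 0.05 the counts of members were 0, 0 and 9 in that order, and of all genes 254, 1368 and 2109. Leaving out baboon 2 raised the last comparison to 10 members, all lower in submandibular gland, where 17.5% of all genes were called lower. Without the 5 libraries named above, 15 members were lower in parotid and 27 lower in submandibular than in sublingual gland, and 41.5% and 50.5% of all genes were too. C5 differed by -2.63 (SE 0.60, adjusted p = 0.00253) between submandibular and sublingual gland in that fit.

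The liver of the single male, baboon 5, differed from the other 4 in many members. It was the lowest of the 5 livers for 19 of the 22 restricted members. Among the 2030 genes with a liver mean at least that of the lowest restricted member (35.22 TPM), 61.8% were lowest in that library. The ratio of baboon 5 to the mean of the other 4 had a median of 0.3547 over the restricted members and 0.6585 over those 2030 genes. It ran from 0.1403 for FGG to 1.15 for PROC.

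Exceptions among restricted members were PROC (1.15), F12 (1.146) and KLKB1 (0.8017), which lay within or above the range of the other livers. Of the 24 members not restricted, the liver of baboon 5 was lowest for 10, within the range for 8 and highest for 6. C5 was highest there, at 1.436 times the mean of the other 4. Hepatocyte markers also spread in both directions, with ratios of 0.2204 for AHSG, 0.3065 for TF, 0.4208 for ALB, 0.7595 for TTR and 1.49 for APOA1. Sex, animal and tissue handling cannot be told apart in 1 library. With that library left out, 34 members were called higher in liver in each of the 4 comparisons, beside 11.4% of all genes against parotid, 14.5% against submandibular gland, 10.2% against sublingual gland and 15.9% against pancreas. The calls of C5 and PLAT against submandibular gland were lost.

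**Figure D5:**
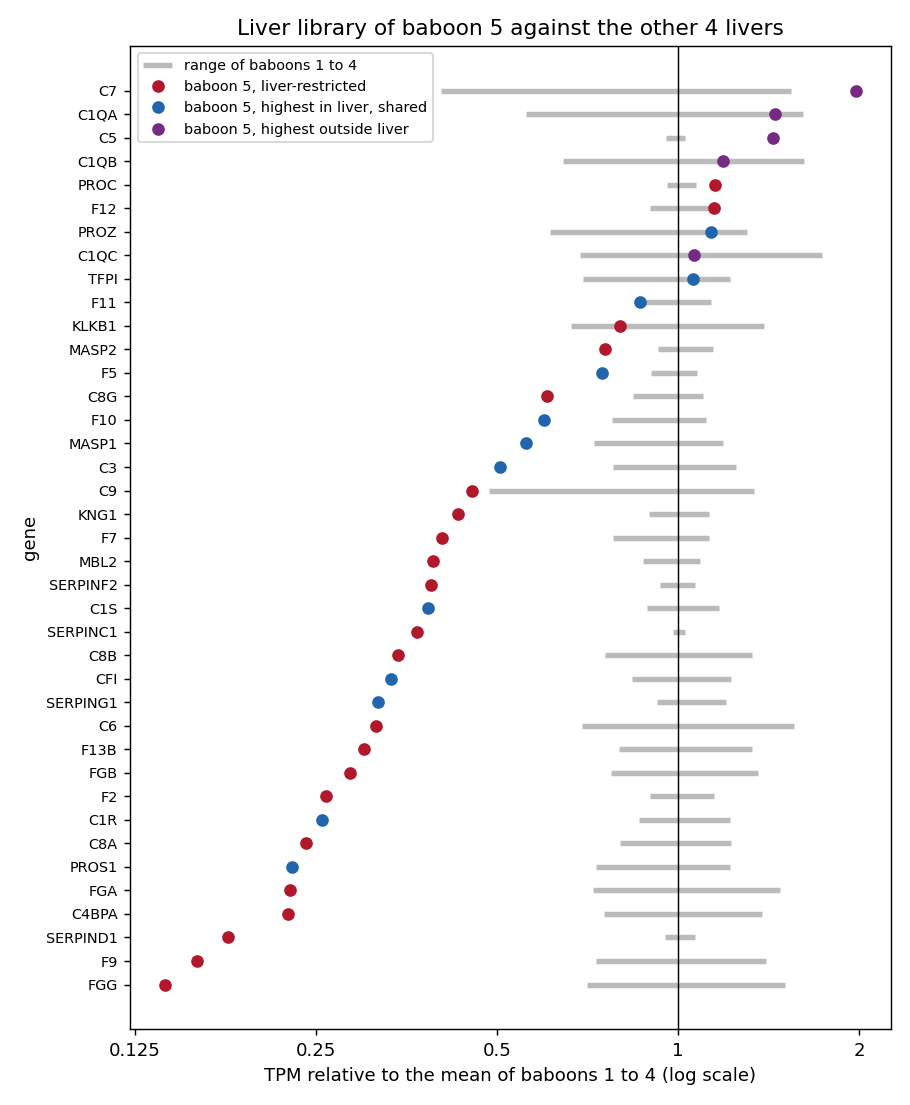
Level in the liver of baboon 5 relative to the mean of baboons 1 to 4 (points, coloured by class), with the range of baboons 1 to 4 (grey bars), on a log scale, for members with a liver mean of at least 10 TPM. Points run from 0.1403 for FGG to 1.975 for C7, and most restricted members lie left of the grey bars while PROC lies to their right.

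Several members are neighbours in the genome, in the gene order of the RefSeq annotation of the Panubis1.0 assembly, in which all 46 symbols were found. The annotation build behind the deposited values is not stated, so no coordinates are given. Of 9 pairs with at most 1 coding gene between them, 7 were adjacent and 6 had both genes in the same class. The share of same-class pairs among all members was not computed. Some of the pairs share a gene, so they are not independent counts. C1QA, C1QC and C1QB lie in a row and all had their highest tissue mean in parotid. FGG and FGA are adjacent, with FGB beyond 1 further gene, and C8A and C8B are adjacent, all restricted to liver.

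The other 3 pairs differed in class. F7 was restricted and its neighbour F10 was shared with glands of baboon 2, and F11 was shared with pancreas while KLKB1 beside it was restricted. C6 and C7, separated by MROH2B alone, showed the widest contrast: C6 was at 22.2 to 109.8 TPM in liver and at most 1.32 TPM elsewhere, whereas C7 was at 3.71 to 18.2 TPM in liver and 185 TPM in parotid of baboon 5.

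Other genes of both systems were counted from a separate list of 50 genes, of which 44 were in the table and 41 were tested. In liver, 17 were called higher than in each of the 3 glands and 20 higher than in pancreas. They included VTN, vitronectin, at 2603, 2433, 2720, 2377 and 1579 TPM in liver. Of all genes tested, 10.9% were called higher in liver than in parotid, 13.9% than in submandibular gland, 9.52% than in sublingual gland and 14.6% than in pancreas. The shares called lower in liver were 2.84%, 2.61%, 5.93% and 2.86% in the same order. CD59, a membrane inhibitor of the terminal pore, was called lower in liver than in parotid (-1.90 ± 0.64, adjusted p = 0.0488) and sublingual gland (-2.48 ± 0.64, adjusted p = 0.00808, limma). F2RL1, a protease-activated receptor, was called lower in liver than in pancreas. The median log2 fold change of this list was 0.40, 0.76, 0.61 and 1.40 in liver against parotid, submandibular gland, sublingual gland and pancreas. Over all genes tested it was -0.01, 0.27, -0.17 and 0.44.

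HABP2 and SERPINA5 joined MASP2 and PROZ among genes lower in gland than in pancreas. HABP2, a plasma serine protease that can activate factor VII, was at 39.1, 24.5, 27.2, 35.1 and 15.7 TPM in pancreas, 208, 254, 182, 182 and 98.03 in liver and at most 3.45 TPM in any gland. Its difference between glands and pancreas was -3.77 ± 0.27 (adjusted p = 3.7e-10, limma), and no pancreas library overlapped with a gland library. SERPINA5, the protein C inhibitor, was at 21.5, 17.8, 25.96, 11.4 and 8.04 TPM in pancreas, overlapping with 1.25 to 10.6 in parotid, 0.643 to 9.85 in submandibular gland and 1.41 to 11.99 in sublingual gland, and differed by -2.0 ± 0.50 (adjusted p = 0.0152). No gene of this second list was called higher in the glands than in pancreas, or between glands. Of all genes tested, 3.28% were called higher and 3.16% lower in the glands than in pancreas, and at most 0.113% either way between glands.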

How the data were processed

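The 46 genes were taken by symbol from a table of 21287 genes in 25 libraries. The deposited values are TPM per gene, quantified by the authors with kallisto, as the table's name and the submitters' processing notes give it. The kallisto version, index, genome build and annotation are not given in the sources used here. Library totals were 999999.5 to 1000000.6 TPM, and read depth is unknown. No unmapped columns were present.

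The 14991 genes whose mean reached 1 TPM in any tissue were fitted as log2(TPM + 1), which understates the change of low genes, with limma 3.58.1 in R 4.3.3 (trend, tissue and animal as terms). The script was first tested on simulated data. Animal identity in the labels pairs the tissues of an animal, and the study states a within-subject design, so an animal block was planned for the model. Deviations from tissue means correlated at 0.161 within and -0.035 between animals on average. Centring on tissue means ties these values to each other, so the second is no separate contrast to the first. Summaries and figures used Python 3.11.15, pandas 2.3.3, numpy 2.4.6 and matplotlib 3.10.9.

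The members, the lists and the tests were chosen with earlier results of these data known. Every member in the table could be named. Values in every library are given for the highest members in liver of each role and for members highest outside liver at a mean of at least 10 TPM. Others named by library were chosen after their values were seen. Alternatives were no animal term, only the tissues compared, TMM and median-of-ratios scaling, no filter or a 5 TPM filter, a pseudocount of 0.1, each animal left out, and 4 gland libraries left out (parotid of baboons 2 and 5, submandibular gland of baboon 5, sublingual gland of baboon 2). Leaving out 5 gland libraries, those and submandibular gland of baboon 2, and leaving out the liver of baboon 5 were added after the data were seen. A planned reading of promoter and protein sequence was not run.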

Additional observations from a re-analysis of the deposited data

Results flagged for a closer look

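Within each tissue, the 5 values of a member were examined for a single library that stood apart from the other 4, in 115 combinations of member and tissue whose highest library held at least 10 TPM. A library counted when its gap to the nearest other, over the range of the 5, exceeded Dixon's critical value of 0.71. Normally distributed values pass it in about 1 in 20. That rate does not carry over here, because TPM values need not be normal and the combinations entered through their highest library. The share of all genes passing the limit was not computed. Among the members it was passed in 39 combinations, and members that rise together in a library are not independent counts.

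Submandibular gland of baboon 2 stood above the other 4 in 16 of them. The complement genes were C1S at 396 TPM (next 74.7), SERPING1 at 200 (next 44.2), C1QA at 113, C1QC at 85.2, C1QB at 84.4, C5 at 106, C3 at 36, CFI at 24.5 and C1R at 22.4. The coagulation and fibrinolysis genes were PLAT at 69, THBD at 68.3, F10 at 63.2, PLAU at 46.2, PROS1 at 29.5, F3 at 16.2 and TFPI at 13.8 TPM. Parotid of baboon 2 stood above the others in 7: F13A1 at 48.7 TPM, VWF at 37.2, F10 at 37, MASP1 at 34.9, PLAT at 30.7, PROS1 at 29 and F3 at 10. In parotid of baboon 5, C7 stood at 185 TPM against 18.8 in the next.

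Sublingual gland of baboon 3 stood above the others in 6, FGB at 61 TPM, SERPINC1 at 31.5, KNG1 at 11.8, F2 at 11, MASP2 at 10 and CFI at 10. Sublingual gland of baboon 1 did so for the C1q chains, C1QA at 50.5, C1QC at 42.6 and C1QB at 36.6 TPM. The liver of baboon 5 stood below the other livers for SERPINC1 at 593 TPM (next 1580), SERPINF2 at 218, F2 at 151 and SERPIND1 at 62.6, and above them for C5 at 162 (next 116). In pancreas of baboon 5, C3 stood lowest at 7.87 TPM.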

How the results depend on the processing

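Under every alternative run the counts of members higher in liver stayed within 1.5 times those reported, and no called member changed direction. Of the calls higher or lower in liver, 32 of 34 against parotid, 33 of 36 against submandibular gland, 33 of 34 against sublingual gland and 34 of 34 against pancreas held under every alternative in which the gene was tested, and 1 of 2 between glands and pancreas. Those lost in some were PROS1 and TFPI, then PROS1, PLAT and C5, then PROS1, and PROZ. With no replicate block, 33, 35, 34 and 34 members were higher in liver than in parotid, submandibular gland, sublingual gland and pancreas, and PLAT was no longer called. The shares of all genes higher in liver in that fit were 10.1%, 12.5%, 8.99% and 13.1%. Counts of members lower in liver moved more. Against parotid (0 as reported) they were 4 when the fit held only those tissues, 2 with TMM or median-of-ratios scaling and 1 with a pseudocount of 0.1. The shares of all genes lower in liver also rose, from 2.84% as reported to 4.03%, 7.08% (TMM), 7.04% (median-of-ratios) and 4.46%. Against submandibular gland (1) they were 3 with either scaling, 0 with no replicate block, 0 with no filter, 0 to 1 with each animal left out, 0 without 5 gland libraries and 0 without the liver of baboon 5. Of all genes 2.61% were lower in liver as reported, 7.71% with TMM and 7.88% with median-of-ratios scaling. That share was 1.93% with no replicate block and 1.53% with no filter. Against sublingual gland (0) they were 3 with only the tissues compared or either scaling, 2 with a pseudocount of 0.1, 0 to 4 with each animal left out (4 without baboon 2), 4 without 4 gland libraries and 6 without 5, beside 10.6%, 15.7% and 17.2% of all genes in those last 3 fits. The share was 5.93% as reported and 4.96% with only the tissues compared. It was 7.98% with TMM, 8.51% with median-of-ratios scaling and 7.41% with a pseudocount of 0.1. Between the glands and pancreas, 1 member was higher (0 as reported) with either scaling, C1S, or a pseudocount of 0.1, F13A1, and the members lower (2) became 9 with either scaling, 1 to 2 with each animal left out and 4 without 5 gland libraries. Of all genes, 3.6% (TMM), 3.5% (median-of-ratios) and 6.18% (pseudocount of 0.1) were higher in the glands in those fits. The shares lower were 3.16% as reported, 6.26% with TMM and 6.38% with median-of-ratios scaling. That share is not given here for the fit without 5 gland libraries, so its count of 4 is not read as a change in the members. Parotid and sublingual gland differed in 3 members (0 as reported) without 4 gland libraries and 15 without 5, where 20.9% and 41.5% of all genes were lower in parotid. Submandibular and sublingual gland differed in 6 and 27, beside 11.9% and 50.5% of all genes, and in 0 to 10 with each animal left out (10 without baboon 2). The cause of these shifts was not tested. TPM gives no depth, so levels under about 1 TPM carry an unknown counting error.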
